A study of Mus musculus with 2 samples.

Results

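The dual-specificity MAP kinase phosphatases studied here are 9 genes, Dusp1, Dusp2, Dusp4, Dusp5, Dusp6, Dusp7, Dusp8, Dusp10 and Dusp16, taken by gene symbol from the 22180 genes that a probe set of the array measured alone. All 9 were found. Their mRNA was measured in RAW264.7, an established mouse macrophage line, on 1 Affymetrix array from wildtype cells and 1 from cells of the genotype given as HuR-deficient. Both cultures received poly(I:C) HMW, the high molecular weight form of a synthetic double-stranded RNA, at a labelled 1 mg/ml with lipofectamine 2000 for 8 hours. HuR, the product of Elavl1, binds AU- and U-rich stretches of mRNA and is known to protect many transcripts from decay. No unstimulated culture was analysed here, and the labels call the deficient cells a knockout (HuR-KO) without saying how it was made, which part of Elavl1 it removed or whether the cells were a single clone. The values therefore compare genotypes after stimulation and do not show whether poly(I:C) induced a gene.

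With 1 array per group there was no replicate error and no test between the groups. The genes were also selected on their values in these arrays, the wildtype and HuR-deficient signals and their difference, so all values below describe these 2 arrays. A difference is always the log2 signal of the array labelled HuR-deficient minus that of the wildtype array. A gene was counted as higher or lower from a 2-fold difference (log2 1). It passed the signal filter if at least 1 of its signals was 4.38 or more, the median over all named genes on both arrays. In bulk RNA, fewer cells with a transcript and less of it per cell cannot be told apart. Signals of different probe sets do not give relative mRNA amounts, so each gene is compared only with itself. The Elavl1 signal was 7.68 in wildtype and 7.75 on the other array, a difference of 0.07, so it was not lower in the cells labelled as a knockout. Whether the probe set lies in the removed part of the gene is not known here, and the signal does not check the genotype label. Of 10 macrophage markers, 9 passed the filter, among them Lyz2 (12.34 in wildtype), Cd68 (11.55) and Csf1r (6.67). Of 19 measured markers of other cell types, 7 passed the filter and none reached 2-fold. The median difference was -0.07 for the macrophage markers and -0.25 for the other markers, and Adgre1, which encodes an adhesion receptor of macrophages, was the macrophage marker past 2-fold (4.94 against 6.51, difference 1.57). Next among those that passed were Spi1 (0.33), Itgam (-0.33) and Cd86 (-0.38), and for the other cell types Cd4 (0.26) and Col1a1 (0.16) lay highest and Krt18 (-0.61) and Cdh5 (-0.49) lowest. Their part in the values below was not tested.

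MAP kinases, the ERK, JNK and p38 enzymes, are switched on by phosphorylation of a threonine and a tyrosine in the activation loop. Dual-specificity MAP kinase phosphatases remove both phosphates and so end the signal. In macrophages, JNK and p38 are activated by microbial and viral sensors and drive cytokine transcription and mRNA stability, and several of these phosphatases are themselves made in response to the kinases they silence. The family is usually divided into inducible nuclear enzymes (Dusp1, Dusp2, Dusp4 and Dusp5), cytoplasmic enzymes that prefer ERK (Dusp6 and Dusp7) and enzymes that prefer JNK and p38 (Dusp8, Dusp10 and Dusp16). Dusp1 mRNA carries AU-rich elements and has been described as a target of HuR and of the decay factor tristetraprolin in other cells.

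Start-site sequence was available for 8 of the 9 genes, in windows of 300 bases (250 before the start and 50 after) from RefSeq on assembly GRCm38.p6. The windows below are shown for Dusp2, the gene with the largest difference, for Dusp1, an inducible gene of the same subgroup that differed in the opposite direction, and for Dusp8, from the JNK- and p38-preferring subgroup. They are printed from 5′ to 3′ along the gene, and capitals mark TGACG, the core of the cAMP response element to which CREB and ATF factors bind, on either strand.
Dusp2, chr2:127335909-127336208, plus strand: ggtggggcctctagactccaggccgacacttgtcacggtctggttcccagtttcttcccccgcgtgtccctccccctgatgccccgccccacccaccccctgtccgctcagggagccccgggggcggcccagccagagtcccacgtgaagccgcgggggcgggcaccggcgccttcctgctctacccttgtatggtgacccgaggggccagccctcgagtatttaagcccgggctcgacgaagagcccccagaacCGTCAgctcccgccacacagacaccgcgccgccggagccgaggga
Dusp1, chr17:26508423-26508722, minus strand: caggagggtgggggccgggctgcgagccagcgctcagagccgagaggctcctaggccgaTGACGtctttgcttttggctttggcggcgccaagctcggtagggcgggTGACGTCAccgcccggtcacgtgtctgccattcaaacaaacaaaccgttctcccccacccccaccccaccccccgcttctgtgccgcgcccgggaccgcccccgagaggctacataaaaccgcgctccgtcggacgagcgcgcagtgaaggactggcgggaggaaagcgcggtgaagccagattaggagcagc
Dusp8, chr7:142095235-142095534, minus strand: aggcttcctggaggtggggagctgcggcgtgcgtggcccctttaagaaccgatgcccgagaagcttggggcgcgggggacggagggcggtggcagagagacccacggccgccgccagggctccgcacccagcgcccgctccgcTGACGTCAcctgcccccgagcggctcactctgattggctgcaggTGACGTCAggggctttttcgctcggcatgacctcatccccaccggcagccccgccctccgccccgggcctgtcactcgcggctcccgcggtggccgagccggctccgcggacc
The core TGACG, searched on both strands, was present in 5 of the 8 windows (Dusp1, Dusp2, Dusp5, Dusp8 and Dusp16), and in 20.8% of 32817 promoter windows of all genes. The full element TGACGTCA, which contains the core on each strand, was found in 2 of the 8 windows and in 1.79% of all windows. These were Dusp1 and Dusp8, both printed above, so the printed windows are not typical of the 8 for this element. In the Dusp1 window the full element lay at bases 108 to 115, and in the Dusp8 window at bases 144 to 151 and 188 to 195, counted from the first base printed. The single TGACG match of Dusp2 lay at bases 256 to 260, downstream of the start. A CArG box, the element of serum response factor, was found in Dusp5 (1.63% of all windows), the AP-1 site TGANTCA in none of the 8 (7.81%) and the GC box GGGCGG in 7 of 8 (35.6%). The windows of Dusp2, Dusp1 and Dusp8 had 70.7%, 67.0% and 73.3% G and C, against a median of 52.7% over all windows. Over the 8 windows this share ran from 57.3% in Dusp6 and 61.0% in Dusp10 to 78.7% in Dusp7. Genes with the core TGACG lay on both sides of 0 in the array comparison. These are letter matches, and the arrays give no measure of factor binding or of transcription.

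The 9 genes did not differ in a common direction. Dusp2 was 3.0-fold higher in the cells labelled HuR-deficient, Dusp4 was 1.64-fold lower, and the other 7 differed by at most 1.25-fold, in either direction. Of the 6 that passed the signal filter, 1 reached 2-fold on the higher side and 0 did on the lower side. Among all 11905 genes that passed, 0.882% reached 2-fold on the higher side and 1.11% on the lower side. Because the genes were taken with this contrast known, nothing is read from their count against these shares. Over all 9, 5 differences were above 0 and 4 below, with a median of 0.23, while 49.2% of all genes were above 0 and 46.3% below, with a median of 0.00. Over the 6 genes that passed the filter the median was -0.28. The sign of the median thus depended on the 3 genes below the filter.

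**Figure D1:**
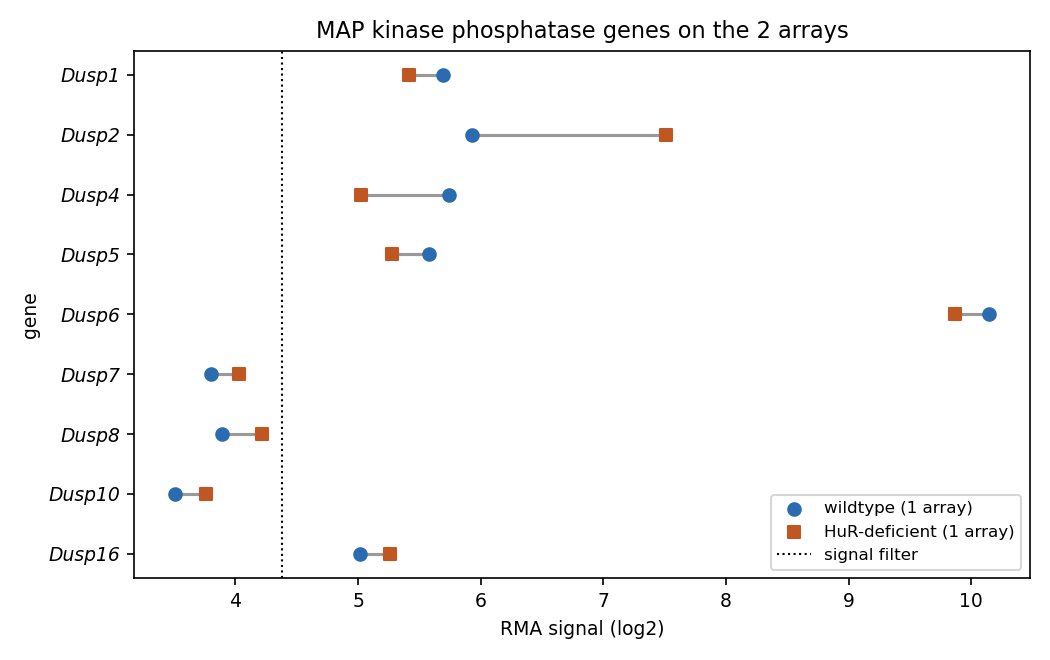
RMA signal (log2, horizontal axis) of the 9 phosphatase genes, listed by subgroup from the inducible nuclear to the JNK- and p38-preferring enzymes. Each circle is the wildtype array and each square the array labelled HuR-deficient, with no error since there is 1 array per group, and the dotted line is the filter at 4.38. Dusp2 has the widest gap, 5.93 against 7.51, and both points of Dusp7, Dusp8 and Dusp10 lie left of the filter.

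Of the inducible nuclear enzymes, Dusp2, which is known chiefly from leukocytes and acts on ERK, gave a log2 signal of 5.93 in wildtype and 7.51 in the cells labelled HuR-deficient. On the linear scale these are signals of 60.8 and 182. Both values lay above the filter, which is a median of signals and not a measure of background. The difference of 1.59 was 4.85 times the robust SD of the difference over all genes that passed (0.33), a spread between genes and not between replicates. Counting Dusp2 itself, 22 of the 11905 genes had a positive difference at least as large. Among genes with a mean signal from 5.47 to 6.92, a range that holds Dusp2, 61 of 2976 (2.05%) reached 2-fold in either direction.

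Dusp4, a nuclear phosphatase of ERK, JNK and p38, lay on the other side, with 5.74 in wildtype and 5.03 in the cells labelled HuR-deficient. Its difference of -0.71 stayed short of 2-fold and was 2.18 times the robust SD. Of all genes that passed, 6.17% differed by at least as much in either direction. At a 1.5-fold threshold, Dusp2 and Dusp4 were 2 of the 6 genes counted, against 10.8% of all genes that passed.

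Dusp1, which restrains p38 and JNK in macrophages and thereby cytokine output, gave 5.69 in wildtype and 5.41 in the cells labelled HuR-deficient. Its difference of -0.28 was 0.85 times the robust SD, and 40.3% of the genes that passed differed by at least as much. Dusp5, a nuclear phosphatase specific for ERK, gave 5.58 and 5.28, a difference of -0.30. Dusp1, Dusp4 and Dusp5 were thus each lower, and Dusp2 alone of this subgroup was higher. The subgroup's median was -0.29 over its 4 genes, all of which passed the filter.

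The cytoplasmic enzymes that prefer ERK had small differences of opposite sign. Dusp6, whose transcription is known to follow ERK activity, gave 10.14 in wildtype and 9.87 in the cells labelled HuR-deficient, a difference of -0.27. It had a probe set besides this one, with a signal of 4.69 on both arrays and a difference of exactly 0. Such identical values occurred in 4.32% of all probe sets. The mean of both Dusp6 probe sets differed by -0.14. The other cytoplasmic gene, Dusp7, gave 3.80 and 4.03, a difference of 0.23, with both signals below the filter. Dusp9, a further cytoplasmic ERK phosphatase that is not one of the 9 genes, gave 5.55 and 5.41, a difference of -0.14.

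The enzymes that prefer JNK and p38 were each slightly higher in the cells labelled HuR-deficient. Dusp16, which is known to hold back JNK in macrophages, gave 5.02 in wildtype and 5.26, a difference of 0.24, and was the only gene of this subgroup to pass the filter. Dusp8 gave 3.89 and 4.21 (difference 0.33), and Dusp10, which dampens JNK and p38 in innate and T cell responses, gave 3.51 and 3.76 (difference 0.25). Neither signal of Dusp8 or Dusp10 reached the filter on either array. Whether these transcripts lay above background was not shown, since the filter does not measure background and no detection call was used. The 3 differences were each below the robust SD of 0.33, at 0.75 times it for Dusp16, 0.99 for Dusp8 and 0.77 for Dusp10.

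**Figure D2:**
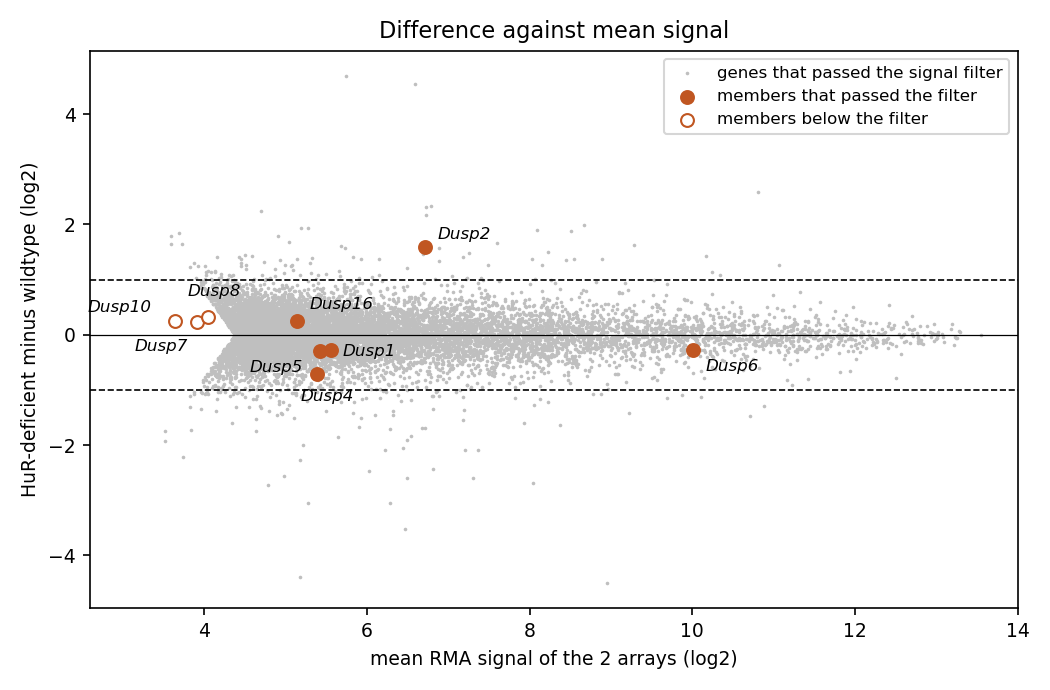
Difference between the arrays (log2, vertical axis) against the mean signal of both (log2, horizontal axis). Grey points are the 11905 genes that passed the filter, filled circles the 6 phosphatase genes that passed and open circles the 3 that did not; dashed lines mark 2-fold. Dusp2 (1.59) lies above the upper line, and the other 8 genes lie between the lines.

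The genes closest to Dusp2 in their pair of signals, by Euclidean distance over the 2 arrays, were Ifit1bl1 (5.95 and 7.42, distance 0.09), H2-Ea (6.10 and 7.67, distance 0.24), Gstt1 (5.65 and 7.81, distance 0.41), Il15ra (5.89 and 7.09, distance 0.42) and Zfp358 (6.33 and 7.33, distance 0.44). A likeness over 2 arrays describes only these values.

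The remaining phosphatases gave no gene past 2-fold. Of 16 measured atypical dual-specificity phosphatases, which lack the MAP kinase docking domain and often have other substrates, 8 differences were above 0 and 7 below, with a median of 0.03. Among the 10 that passed the filter, 4 were above 0 and 6 below, with a median of -0.27, so the sign of this median too depended on genes below the filter. Of these 10, Dusp28 (0.71) and Dusp3 (0.46), which acts on ERK and JNK, lay highest. Dusp19 (-0.83) and Dusp18 (-0.76) lay lowest, each with a larger size of difference than Dusp4. Another 10 genes encode tyrosine and serine/threonine phosphatases that also act on MAP kinases, or noncatalytic subunits of them (Ppp2r1a and Ppp2r2a). In this list 3 were above 0 and 7 below, with a median of -0.15. Among the 9 that passed the filter, the tyrosine phosphatase gene Ptpn5 (4.08 against 4.75, difference 0.67) lay highest, followed by Ppp2r2a, a regulatory subunit of protein phosphatase 2A (0.13). Ppm1b (-0.41) and Ptpn7, which binds ERK and p38 in leukocytes (-0.35), lay lowest.

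The kinases on which these phosphatases act differed little. Of 12 measured MAP kinase genes, 7 were above 0 and 5 below, with a median of 0.06 and none past 2-fold. The 8 that passed the filter, 4 above 0 and 4 below, had a median of -0.0048. Among them, the p38 alpha gene Mapk14 differed by 0.24, Mapk4 by 0.25, the JNK gene Mapk9 by -0.18 and Mapk6 by -0.38. Of 6 MAP kinase kinase genes, 2 were above 0 and 4 below (median -0.22). Among the 5 that passed, Map2k2, which activates ERK, differed by 0.51, while Map2k4, which activates JNK, differed by -0.57 and Map2k5 by -0.39. Of 16 MAP kinase kinase kinase genes, 10 were above 0 and 5 below (median 0.04), and those that passed ran from Map3k4 (-0.42) and Map3k10 (-0.19) to Map3k20 (0.41) and Braf (0.58).

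Downstream, the 8 measured genes of kinases activated by MAP kinases had a median of 0.07, with 5 above 0 and 3 below. Among the 6 that passed, Mknk1 (0.27) and Rps6ka5 (0.17) lay highest, and Rps6ka3 (-0.20) and Mknk2 (-0.10) lowest. The 15 scaffold and feedback inhibitor genes had a median of -0.10, with 3 above 0 and 11 below. Gadd45g, whose product activates the kinase upstream of JNK and p38, differed by 0.65 and the ERK pathway inhibitor gene Spred1 by 0.12. The scaffold genes Lamtor3 (-0.49) and Mapk8ip2 (-0.44) lay lowest among the 8 that passed the filter, and Ksr1, a scaffold of the ERK pathway with both signals below the filter, lay lowest of all 15 (-0.95). The 21 transcription factor and early response genes that MAP kinases control had a median of 0.01, with 11 above 0 and 9 below. Among the 20 that passed, Elk3 (0.53) and Atf3 (0.34) lay highest and Myc (-0.77) and Egr2 (-0.61) lowest, and none reached 2-fold.

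Other proteins that bind AU-rich elements compete with or act beside HuR on mRNAs such as that of Dusp1. The 10 genes listed here under this heading include Elavl1, the gene of HuR itself (0.07). They also include Pum2 and Celf1, whose products are known chiefly for binding other elements. Of the 10, 6 were above 0, Elavl1 among them, and 4 below, with a median of 0.07 and none past 2-fold. Zfp36, which encodes tristetraprolin, differed by 0.35 and its relative Zfp36l1 by 0.68, while Tia1 (-0.36) and Pum2 (-0.55) lay lowest among those that passed. Dusp2 was the gene past 2-fold among the phosphatase, kinase, feedback, transcription factor and AU-rich element lists described here.

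**Figure D3:**
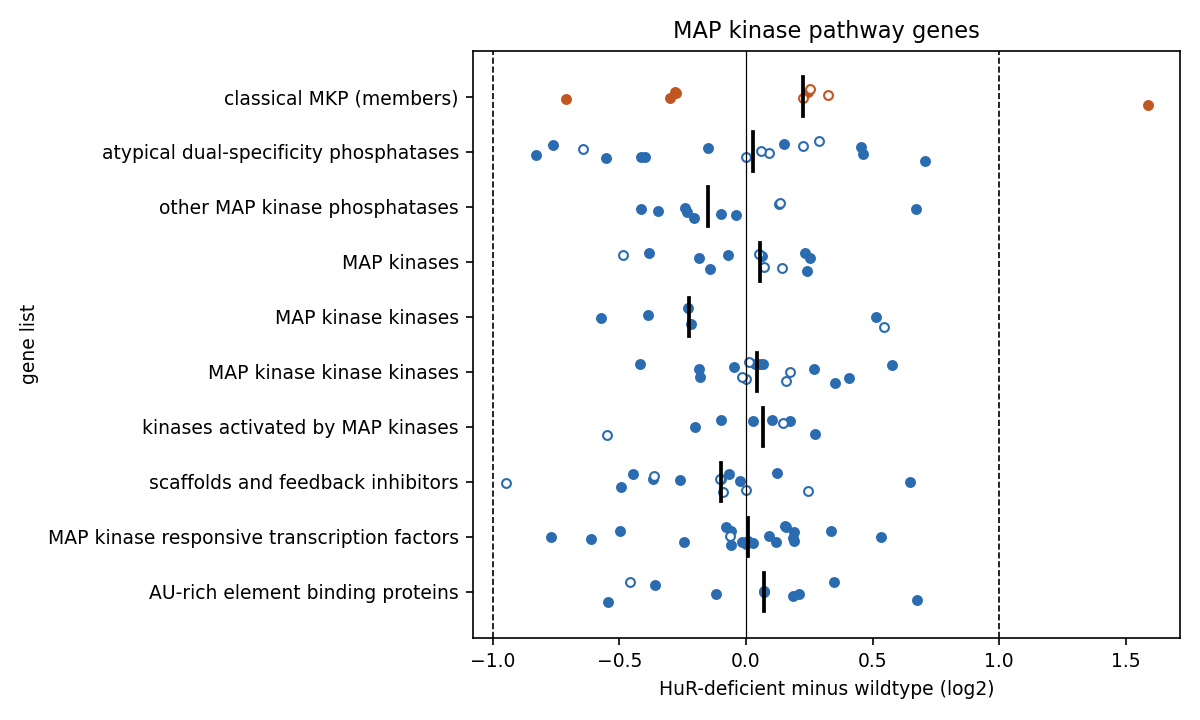
Difference between the arrays (log2, horizontal axis) for each measured gene of the 9 phosphatase genes and of 9 further lists of the MAP kinase pathway and of AU-rich element binding proteins. Filled points passed the signal filter, open points did not, vertical bars are list medians and dashed lines mark 2-fold; vertical scatter within a list only separates points. Dusp2, at 1.59, is the point beyond the dashed lines.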

How the data were processed

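The deposited table gives the log2 signal of every probe set in 1 column per array. The submitters' processing notes name RMA, without a version, and no annotation or genome build is stated. RMA subtracts background, brings both arrays to a common distribution and combines the probes of a set by median polish, which hides a shift in total mRNA and compresses weak signals. That the scale is log2 follows from the range of the values. No detection call was used, and having only 2 arrays limits the precision.

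Of 41345 probe sets, 23521 had 1 gene symbol in the platform's table, 1814 several and 16010 none; those with 1 were used. Where a gene had several, the probe set of highest mean signal stood for it. The lists came from general knowledge of the pathway and were named by symbol; 153 of 164 entries were measured. The members and lists were chosen with earlier results of these data known. Named from each list were genes past 2-fold and the 2 highest and 2 lowest differences among genes that passed the filter; Lyz2, Cd68, Csf1r and Ksr1 fall outside this rule and were named after their values were seen; for the gene with the largest difference, the 5 nearest genes (predicted and non-coding symbols left out). Alternatives were centring, renewed quantile normalisation, subtraction of a loess trend (span 0.3), the mean over probe sets, and changed filters and thresholds. The counting step was tested on simulated data. Computation used statsmodels 0.14.6, pandas 2.3.3 and numpy 2.4.6 in Python 3.11.15, and figures were drawn with matplotlib 3.10.9.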

Additional observations from a re-analysis of the deposited data

How the results depend on the processing

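Under centring, a further quantile normalisation, loess removal and averaging of probe sets, each of the 9 differences kept its sign. Centring changed none of the 9, and averaging could move only Dusp6, which alone had more than 1 probe set. The kept signs are therefore no measure of how reliable the differences are. Dusp2 ranged from 1.59 to 1.60, Dusp4 stayed at -0.71 and Dusp6 ranged from -0.27 to -0.14, the last when its probe sets were averaged. The median over the 9 genes ranged from 0.18 to 0.23. Dusp2 was counted as higher under all 8 alternatives, including a 3-fold threshold, at which its 3.0-fold difference only just counts. Several of these could not have removed it from the count. Averaging leaves a gene with 1 probe set unchanged, and dropping the filter or lowering the threshold only admits more genes. Its signal of 7.51 in the cells labelled HuR-deficient also lies above the filter at 5.61. At a 1.5-fold threshold, 1 gene of the 9 was counted as lower, Dusp4. Over all genes, 105 were higher and 132 lower. These counts were 185 and 232 with no filter, 63 and 86 with a filter at the 75th percentile of signal (5.61), 648 and 633 at 1.5-fold, and 22 and 33 at 3-fold, as fewer or more genes and a lower or higher threshold imply. No paired analysis was possible because each group has 1 array. Without replicates, the spread between cultures, which limits every value here, cannot be given.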
